A study of Mus musculus with 40 samples.

Results

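Goblet cells are the mucus-secreting cells of the intestinal epithelium, and their gene program was followed here through 10 genes: Muc2, Tff3, Clca1, Fcgbp, Agr2, Zg16, Spink4, Retnlb, Spdef and Atoh1. They were taken by symbol from the 45706 genes of the deposited tables, and all 10 had a row. This list of goblet cell genes was chosen with earlier results of these data known. RNA had been sequenced from cells sorted out of mouse colon tumors, healthy mouse colon, and the blood of tumor-bearing and healthy mice, which gave 40 libraries in 10 groups of 4. The tumor-bearing mice carried the transgene labelled Cdx2CreERT2 - Apc fl/fl and received tamoxifen at 25 mg/kg as a single injection at an age of 8 to 10 weeks by the labels. Tamoxifen activates the Cre recombinase, which is driven from Cdx2 sequences active in intestinal epithelium, and Cre then deletes the tumor suppressor Apc. The strain of these mice was labelled C57Bl6/Sv with a number that differed from sample to sample. Healthy mice were labelled C57Bl6, with no transgene and no agent, so tumor, genotype, strain and tamoxifen cannot be told apart. Epithelial cells were sorted as EpCAM+ CD45-, stromal cells as EpCAM- CD45-, and neutrophils and monocytes as CD45+ CD11b+ cells that differed in Ly6G and Ly6C. Some blood libraries were titled with 2 animals, and several tumor libraries of different cell types were titled with the same animal.

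In the colon, goblet cells descend from crypt progenitors that escape Notch signaling and switch on the transcription factor Atoh1. Spdef acts downstream of Atoh1 and drives the maturation of the secretory granule. The mature cell packs the gel-forming mucin Muc2 together with Fcgbp, Clca1, Zg16 and the trefoil peptide Tff3, and uses the protein disulfide isomerase Agr2 to fold Muc2 in the endoplasmic reticulum. Spink4, a Kazal-type protease inhibitor family member, and Retnlb, which encodes the secreted protein RELMβ, are further goblet cell products of the intestine. Loss of Apc leaves β-catenin active with TCF factors, the pathway that normally maintains crypt progenitors.

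Promoters are shown for Muc2, the main structural product, and Atoh1, the fate regulator. The sequences are the bases just before the RefSeq start in GRCm38.p6, at chr7:141690090-141690339 and chr6:64728875-64729124, both on the plus strand, and capitals mark the letters CAGCTG, the letters TTTAT and the letters CTTTGA on either strand.
Muc2: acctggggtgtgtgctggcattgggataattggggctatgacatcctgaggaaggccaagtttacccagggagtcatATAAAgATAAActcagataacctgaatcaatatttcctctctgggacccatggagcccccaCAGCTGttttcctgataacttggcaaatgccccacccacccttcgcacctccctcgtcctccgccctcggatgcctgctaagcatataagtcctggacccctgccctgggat
Atoh1: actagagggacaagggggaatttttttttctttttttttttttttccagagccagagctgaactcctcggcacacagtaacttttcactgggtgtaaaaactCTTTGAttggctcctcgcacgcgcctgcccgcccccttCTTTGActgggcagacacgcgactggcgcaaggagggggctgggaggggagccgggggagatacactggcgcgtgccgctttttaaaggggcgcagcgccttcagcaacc
CTTTGA, letters that TCF factors can recognize, occurred 2 times in the Atoh1 window and in 14.1% of 27018 promoter windows of that length (both strands). TTTAT, letters found in sites of CDX factors, occurred 2 times in the Muc2 window and in 38.1% of all windows, and CAGCTG, an E-box of the kind bound by basic helix-loop-helix factors, 1 time and in 12.8%. RefSeq windows were given for 5 of the 10 genes (Agr2, Atoh1, Fcgbp, Muc2 and Spdef), of which 3 held TTTAT, 2 held CAGCTG and 1 held CTTTGA, counting both strands. These matches are letters in a window and not measured binding.

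Libraries held 10716847 to 38002110 counts on genes, of which mitochondrial genes took 5.34% to 83.9%. The library labelled healthy colon epithelium, replicate 4, stood apart: 83.9% of its counts were mitochondrial, its 12 epithelial markers summed to 86.6 RPKM against 288 to 420 in replicates 1 to 3, and lymphocyte and plasma cell markers summed to 506 RPKM. Its title carries the same animal code as that of healthy stroma, replicate 4, which held 25.4 RPKM of epithelial markers against 2.49 to 3.48 in the other healthy stromal libraries. Of the tumor stromal libraries, 2 carry the same replicate number in the labels and were numbered 3 and 4 in the order of deposition. Tumor stromal libraries went against their label in part: 10 fibroblast markers summed to 7.21 to 26.9 RPKM, against 537 to 2757 in healthy stroma, while epithelial markers reached 302 RPKM in replicate 1 and 173 RPKM in replicate 2. RPKM, read counts scaled to gene length and library size as deposited, allows levels to be compared between genes per length. Its scale relative to the total on genes varied from 0.642 to 1.55 between libraries (1.22 to 1.55 in healthy and 1.26 to 1.30 in tumor epithelium), so fold changes were taken from a fit to the counts.

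Healthy colon epithelium held the highest mean level of 9 of the 10 genes. Muc2 led, with 491 ± 339 RPKM (SD, n = 4), followed by Spink4 with 125 ± 100.1 RPKM and Agr2 with 117 ± 71.5 RPKM. Retnlb stood at 88.8 ± 56.1 RPKM, Zg16 at 34.1 ± 19.9, Tff3 at 28.1 ± 17.7, Clca1 at 13.3 ± 8.44 and Fcgbp at 8.45 ± 6.64 RPKM. The transcription factors were lowest, Atoh1 at 3.94 ± 2.47 and Spdef at 2.12 ± 1.54 RPKM. The ranges of neighbors in this order overlapped across libraries, and replicate 4 was low for each of the genes. Within single libraries the order of neighbors held in all 4, except for Spink4 against Agr2 and Atoh1 against Spdef. Retnlb alone had its highest mean elsewhere, in blood neutrophils of tumor-bearing mice.

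**Figure D1:**
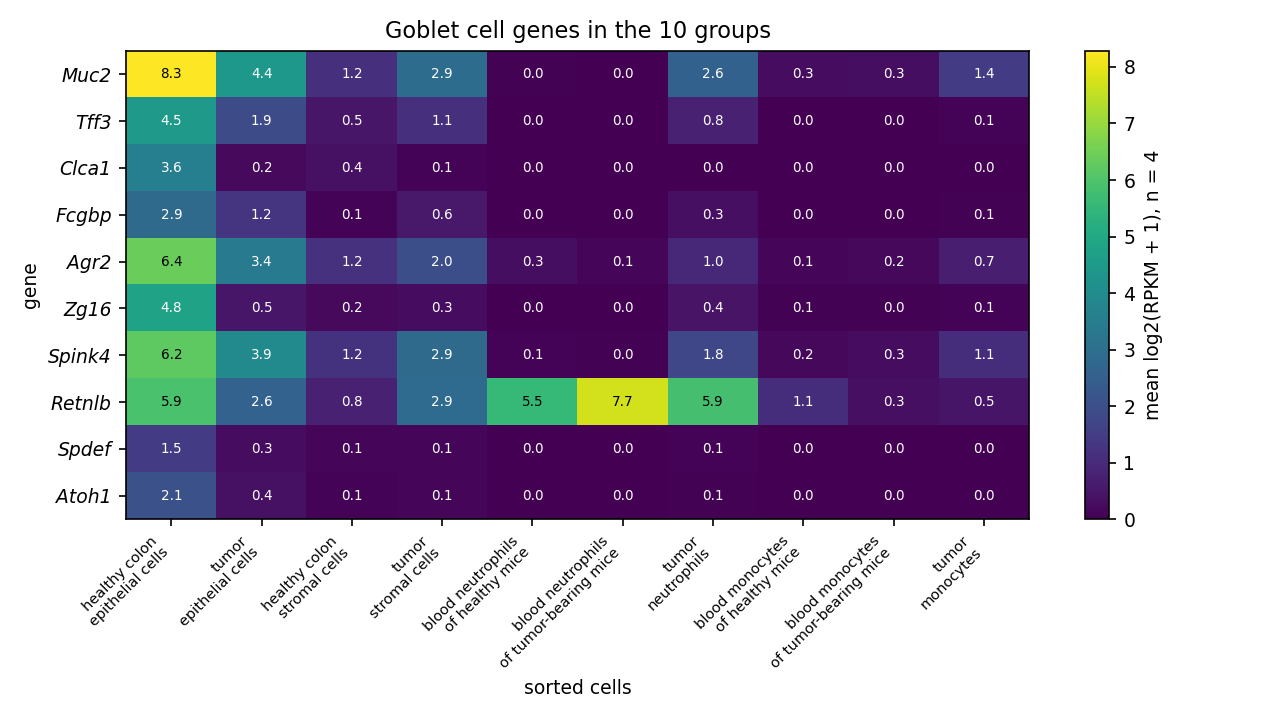
Mean log2(RPKM + 1) of 4 libraries for each gene (rows) in each of the 10 groups of sorted cells (columns), with the value printed in each cell. Healthy colon epithelium is the highest column for 9 genes, and Retnlb is also high in the neutrophil columns.

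Against healthy stroma, all 10 genes were higher in healthy epithelium by the quasi-likelihood test of edgeR, where 11.5% of 18468 tested genes were called higher. A gene was called when its Benjamini-Hochberg adjusted p was under 0.05 and its log2 fold change beyond 1.5 in either direction. Healthy stroma held 0 to 435 counts of Clca1, 0 to 33 of Atoh1 and 0 to 19 of Zg16 per library. Such genes passed the filter on low counts through the epithelial libraries. A higher call was then the likely outcome, so nothing is read from the share of members called. The log2 difference ran from 5.18 ± 0.95 (SE) for Spdef, adjusted p = 0.0023, to 8.41 ± 1.03 for Zg16, adjusted p = 0.00031. Clca1 was closest to the threshold (5.74 ± 1.97, adjusted p = 0.0446) and missed it, with an adjusted p of up to 0.0814, when any healthy epithelial library or healthy stromal replicate 1, 2 or 3 was left out, and also with DESeq2 (0.064) and with no filter on low counts (0.083). In healthy stroma replicates 1 to 3, Muc2 read 0.0702, 0.0793 and 0.0622 RPKM, and in replicate 4 it read 18.8 RPKM. That library held 8.40% of the healthy epithelial mean of epithelial markers and a median of 6.03% of the healthy epithelial mean over the members other than Retnlb.

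In tumor epithelium the whole program was lower than in healthy epithelium. Each of the 10 genes was tested and each was called lower, while 7.88% of the 16085 tested genes were called lower. The median log2 fold change was −3.95 over the 10 genes and −0.01 over all tested genes, and the 10 ran from −6.84 for Clca1 to −2.97 for Fcgbp. In single libraries, RPKM did not overlap between the groups for 2 of the 10, Clca1 and Zg16, as it did not for 2.44% of all tested genes with tumor below healthy. Healthy replicate 4 was the library that reached into the tumor range for the other 8. The 10 genes were called lower also without that library and when any other of the 8 libraries was left out. Fewer goblet cells and less RNA per goblet cell cannot be told apart in sorted bulk epithelium.

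**Figure D2:**
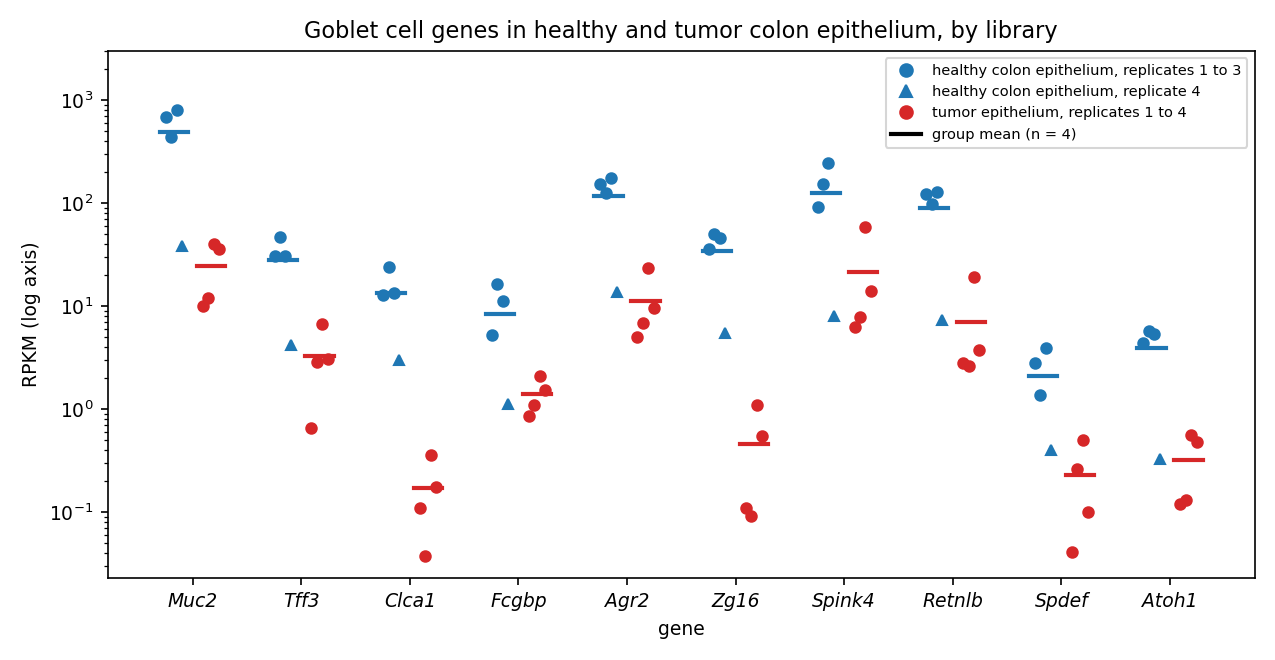
RPKM of each gene (log axis) in the 4 healthy (blue) and 4 tumor (red) epithelial libraries, with bars at the group means and a triangle for healthy replicate 4. All tumor libraries lie below healthy replicates 1 to 3 for every gene, and the triangle stays above the tumor points for Clca1 and Zg16.

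Muc2 builds the net of the mucus layer. It read 688, 433, 805 and 38.4 RPKM in healthy epithelium replicates 1 to 4 and 10.0, 12.0, 39.9 and 35.5 RPKM in the tumor replicates. The lowest healthy library thus lay within the tumor range, the other 3 more than 10-fold above it. The fitted log2 fold change was −4.78 ± 0.61 (SE), adjusted p = 0.00037.

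Clca1, a secreted protease of the mucus that cleaves Muc2, showed the deepest drop. Its healthy libraries read 12.9, 23.7, 13.4 and 3.01 RPKM and its tumor libraries 0.111, 0.0379, 0.359 and 0.177 RPKM. No healthy library came near the tumor values, and the log2 fold change was −6.84 ± 0.49, adjusted p = 1.9e-05. Zg16, a lectin that binds bacterial peptidoglycan and keeps bacteria off the epithelium, behaved alike with 36.0, 49.5, 45.3 and 5.49 RPKM in healthy and 0.110, 0.0920, 1.10 and 0.544 RPKM in tumor epithelium. Tumor replicates 1 and 2 held 4 counts of Zg16 each. Its log2 fold change was −6.68 ± 0.58, adjusted p = 4.8e-05. Zg16 lies at chr7:127050156-127087328 on the minus strand and overlaps Gm44939 and Gm22747 on the other strand. Their annotated exons share 0 bases with those of Zg16.

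Fcgbp and Tff3 fell with smaller log2 changes. Fcgbp, the large IgG Fc-binding protein of mucus, read 5.29, 16.3, 11.1 and 1.11 RPKM in healthy and 0.852, 1.09, 2.11 and 1.52 RPKM in tumor epithelium, a log2 change of −2.97 ± 0.33, adjusted p = 0.00017. Healthy replicate 4 lay below 2 of the tumor libraries. Fcgbp shared 677 of its 10540 50-base stretches (6.42%) with other genes, mostly 9530053A07Rik, so a small part of its count is uncertain. Tff3, the peptide that supports repair of the epithelial surface, read 30.8, 47.0, 30.6 and 4.14 RPKM in healthy and 0.660, 2.85, 6.65 and 3.08 RPKM in tumor libraries. The log2 change of Tff3 was −3.59 ± 0.51, adjusted p = 0.00065.

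Agr2, the folding enzyme, fell by 3.88 on the log2 scale (SE 0.44, adjusted p = 0.00020). Its healthy libraries stood at 154, 124, 174 and 13.7 RPKM and its tumor libraries at 4.97, 6.86, 23.6 and 9.59 RPKM. One tumor library, replicate 3, was above healthy replicate 4. That tumor library was the highest of its group for all 10 genes, and it also held the most epithelial markers, 482 RPKM against 195 to 304 RPKM in the other tumor epithelial libraries.

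The further secreted products were Spink4 and Retnlb. Spink4 read 92.2, 153, 245 and 8.00 RPKM in healthy and 6.30, 7.79, 58.0 and 14.0 RPKM in tumor epithelium, and its log2 change of −2.98 ± 0.66 had the largest adjusted p of the 10, 0.0084. The call was lost in a fit over all 40 libraries (adjusted p = 0.11) and with limma on log2(RPKM + 1) (adjusted p = 0.069). Retnlb read 122, 97.1, 129 and 7.26 RPKM in healthy and 2.81, 2.63, 19.0 and 3.78 RPKM in tumor epithelium, a log2 change of −4.19 ± 0.65, adjusted p = 0.0011. For each of these genes the tumor replicate 3 was well above its group, and healthy replicate 4 well below its own.

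Both transcription factors of the lineage fell as well. Atoh1 read 4.35, 5.68, 5.39 and 0.328 RPKM in healthy and 0.119, 0.132, 0.562 and 0.474 RPKM in tumor libraries, a log2 change of −4.02 ± 0.55, adjusted p = 0.00054. Tumor replicates 1 and 2 held 14 and 17 Atoh1 counts. Spdef read 2.82, 1.36, 3.89 and 0.401 RPKM in healthy and 0.0410, 0.265, 0.502 and 0.101 RPKM in tumor libraries, a log2 change of −3.79 ± 0.66, adjusted p = 0.0022, which shrank to −1.21 and below the fold threshold on log2(RPKM + 1). Only tumor replicate 3 exceeded the lowest healthy Spdef value.

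**Figure D3:**
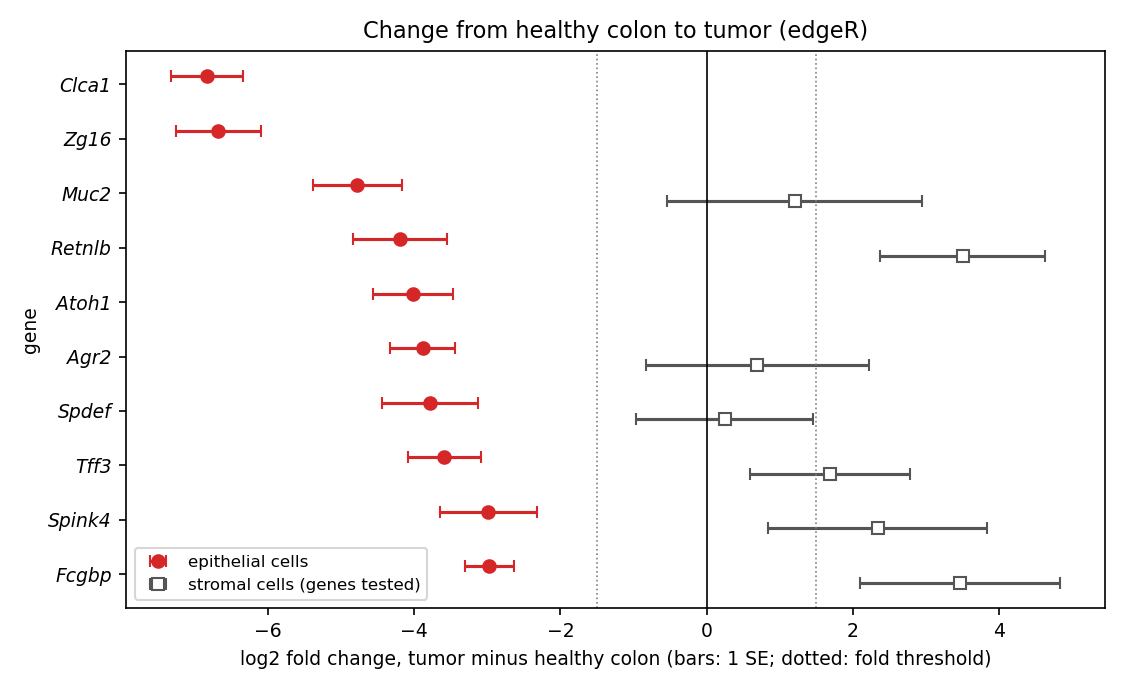
Log2 fold change from healthy colon to tumor (horizontal axis, tumor minus healthy) with bars of 1 SE for each gene in epithelial cells (red) and, for the 7 genes tested there, in stromal cells (open squares), from edgeR fits of 4 against 4 libraries. All epithelial values lie beyond −1.5, from −6.84 to −2.97, and all stromal values lie above 0 without being called, those of Spdef and Agr2 turning below 0 under some of the other settings.

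Relative to the 12 epithelial markers of the same library, which removes differences in total depth and mitochondrial share, tumor epithelium lay below every healthy library for 9 of the 10 genes, against 7.11% of all tested genes. Muc2 amounted to 44.4% to 238% of the summed epithelial marker RPKM in healthy and 4.06% to 11.7% in tumor libraries. Zg16 amounted to 6.33% to 12.5% against 0.0447% to 0.228%. In this measure healthy replicate 4 stayed above all tumor libraries for each gene but Spink4, where 9.23% to 58.4% in healthy met 2.55% to 12.0% in tumor libraries.

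The members did not fall by one factor. Within each epithelial library, Clca1 amounted to 1.66% to 7.83% of the Muc2 RPKM in healthy and 0.316% to 1.10% in tumor libraries. Zg16 amounted to 5.24% to 14.3% of Muc2 in healthy and 0.766% to 2.75% in tumor libraries. A ratio to Muc2 that was below every healthy library in every tumor library occurred for 0.137% of the other tested genes (22 of 16084), and Clca1 and Zg16 were among them. In the opposite direction, Fcgbp moved from 0.769% to 3.75% up to 4.29% to 9.11% of Muc2 and Spink4 from 13.4% to 35.4% up to 39.5% to 145%. Since 89.5% of all genes moved in that direction against Muc2, nothing is read from those. Atoh1 stayed close to 1% of Muc2, at 0.633% to 1.31% in healthy and 1.10% to 1.41% in tumor epithelium.

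**Figure D4:**
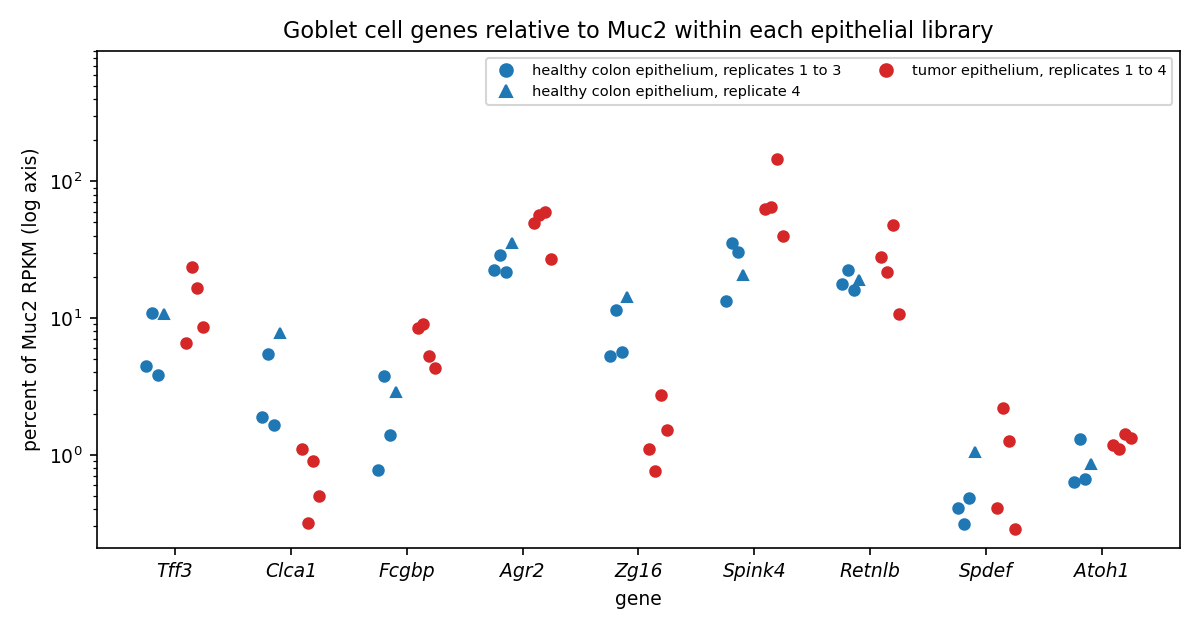
RPKM of 9 genes as a percentage of Muc2 in the same library (log axis) for healthy (blue, triangle for replicate 4) and tumor (red) epithelium. Clca1 and Zg16 lie lower in all tumor libraries than in any healthy library, Fcgbp and Spink4 higher, and the other genes overlap.

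With the group means subtracted, the 10 genes went up and down together over the 8 epithelial libraries: Pearson's r on log2(RPKM + 1) was above 0 for all 45 pairs, with a median of 0.91 and a range of 0.61 to 0.99. Healthy replicate 4 lay far below its group, for Muc2 at 5.30 against 8.76 to 9.65 on this scale. Its weight in the r values of this paragraph was not tested. These r values describe 8 libraries that differ in depth and mitochondrial share. Most of the shared movement was not particular to goblet genes, since the median r of 6961 genes with the mean of the 10 was 0.88 and 3041 of them were above 0.9. The 10 genes most alike to that mean, with r from 0.995 to 0.999, were Ugcg, a glucosylceramide synthase, Zfp638, Tm9sf3, the potassium channel subunit Kcne3, the folding factor Erp44, Lrrc59, Rala, Golm1, the fatty acid elongase Elovl5 and the interleukin receptor Il1r1. Of these, Golm1 (log2 change −1.97, adjusted p = 0.00043) and Il1r1 (−2.11, adjusted p = 0.00064) were called lower in tumor epithelium.

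Around the members, most tested genes in the lists of other mucins and other goblet products were called lower in tumor epithelium. Of 9 other mucins tested, 6 were called lower and 1 higher, with a median log2 change of −2.48, where 7.52% of all tested genes were called higher. Muc3 read 58.5 ± 43.8 RPKM in healthy and 3.34 ± 3.49 RPKM in tumor epithelium (log2 change −4.80 ± 0.69, adjusted p = 0.00074), and Muc3a and Muc13, also membrane mucins of the enterocyte brush border, changed by −3.61 ± 0.30 and −2.73 ± 0.46. Muc3 and Muc3a may share reads. Muc6, a gel-forming mucin of gastric glands, rose from 0.141 ± 0.103 to 4.85 ± 1.10 RPKM (log2 change 4.64 ± 0.46, adjusted p = 8.1e-05). The gel-forming Muc5ac, at 0.240 RPKM in healthy epithelium, was not called (−0.57, adjusted p = 0.55). Muc5b, also gel-forming, was called lower (−2.48) from only 0.113 RPKM. Muc5ac and Muc5b were named after their values were seen. Among 17 other goblet products tested, 12 were called lower and 0 higher. Clca3b, a relative of Clca1, changed by −3.58 ± 0.25, Clca4a by −2.97 ± 0.55, the tissue kallikrein Klk1 by −4.52 ± 0.62 and the inflammasome sensor Nlrp6 by −3.67 ± 0.33. Both lists gave the same counts without healthy replicate 4.

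Of 16 enzymes of mucin O-glycosylation tested, 11 were called lower and 0 higher (median −2.68), and 10 were called lower without healthy replicate 4. Gcnt3, which branches the sugar chains of mucins, fell from 13.5 ± 8.11 to 1.85 ± 1.56 RPKM (log2 change −3.39 ± 0.57, adjusted p = 0.0018). B3gnt6, the core 3 synthase of the colon, changed by −4.49 ± 1.10, the sulfotransferase Chst4 by −4.04 ± 0.58, and Galnt5, which adds the first sugar, by −3.51 ± 0.47. Protein folding genes of the secretory pathway moved apart instead: 4 of 15 were called lower, 0 higher, and the median was 0.33. The 4 were Ern2 (−2.79 ± 0.24), the stress sensor of mucous cells, Pdia5 (−2.11 ± 0.51), Creb3l1 (−2.04 ± 0.28) and Creb3l4 (−2.03 ± 0.60). The general chaperone Hspa5 averaged 32.4 RPKM in healthy and 136 RPKM in tumor epithelium, with a log2 difference of 1.49 (adjusted p = 0.0033) that fell just short of the fold threshold. Hspa5 was chosen after its values were seen.

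Other regulators of secretory fate did not follow Atoh1 and Spdef as a list. Of 12 tested, 2 were called lower, the nuclear receptor Hnf4g (−3.55 ± 0.32) and the corepressor Cbfa2t3 (−1.88 ± 0.56), and the median was −0.01. Without healthy replicate 4, 1 was called higher as well. Of 14 Notch pathway genes tested, 3 were called higher and 1 lower, with 4 higher without healthy replicate 4 and a range over settings of 1 to 5 higher and 0 to 2 lower. Hey1, a Notch target, averaged 0.0839 ± 0.0722 RPKM in healthy and 2.69 ± 0.59 RPKM in tumor epithelium (log2 change 4.28 ± 0.65, adjusted p = 0.00098), and the receptor Notch2 rose by 1.58 ± 0.27. The others called were the ligands Jag2, higher by 3.04 (adjusted p = 0.010), and Dll1, a ligand of secretory progenitors, lower by a log2 change of −2.24 (adjusted p = 0.0075), both under 1 RPKM and named after their values were seen. The target Hes1 averaged 6.22 RPKM in healthy and 18.3 RPKM in tumor epithelium, a log2 difference of 1.03 that was below the fold threshold. Hes1 too was chosen after its values were seen.

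Markers of other epithelial types were set beside the members. All 10 colonocyte markers tested were called lower (median −5.87), among them Car1, the carbonic anhydrase of absorptive cells, from 577 ± 349 to 5.20 ± 6.11 RPKM. Of 5 enteroendocrine markers tested, 4 were called lower, with Chgb at −4.97 ± 0.60. Of 8 stem cell markers, 4 were called higher and 1, Slc12a2, lower, and the higher ones included the Wnt targets Axin2 (2.57 ± 0.21), Znrf3 (2.23 ± 0.24) and Rnf43 (2.01 ± 0.28). Without healthy replicate 4, the stem cell markers gave 4 higher and 2 lower calls. Of 5 Paneth cell markers tested, Pla2g2a (6.65 ± 1.06) and Mmp7 (5.26 ± 1.09) were called higher and Mptx1 and Mptx2 lower. Of the 12 epithelial markers, 3 were called lower (Lgals4, Cdh17 and Vil1) and Cldn4 higher, with a median of −0.69, and 2 were called in each direction without healthy replicate 4.

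Markers of cells outside the epithelium were measured beside the members. Fibroblast markers summed to 0.334 to 3.28 RPKM in healthy and 0.678 to 2.24 RPKM in tumor epithelium, and 1 of 6 tested was called higher and 2 lower (1 lower without healthy replicate 4). Endothelial markers gave 1 higher call of 6, Cdh5 (4.62 ± 0.95). Neutrophil markers gave 1 lower call of 4, Retnlg, and 2 higher calls without healthy replicate 4. Whether reads of Retnlb, a gene of the same family, entered the Retnlg counts was not tested. Of 7 monocyte and macrophage markers and 2 lymphocyte and plasma cell markers tested, 0 were called by edgeR, and 1 monocyte and macrophage marker was called lower without healthy replicate 4. Monocyte and macrophage markers summed to 4.22 to 14.8 RPKM in healthy and 19.9 to 129 RPKM in tumor epithelium, highest in tumor replicate 3. Most of that tumor sum was Lyz2, which averaged 4.84 RPKM in healthy and 51.6 RPKM in tumor epithelium without being called. Csf1r averaged 0.143 and 0.263 RPKM and Adgre1 0.0316 and 0.0326 RPKM. Of the 7 tested, 3 changed above 0 and 4 below 0, and the genes named here were chosen after their values were seen. Lymphocyte and plasma cell markers were highest in healthy replicate 4 (506 RPKM), followed by healthy replicate 1 (55.6 RPKM) and tumor replicate 3 (52.2 RPKM). The part of these cells in the fall of the members was not tested.

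In stromal cells the members did not show the epithelial fall. Of 10 genes, 7 passed the filter on low counts, and 0 were called by edgeR, where 3.39% of 19081 genes were called higher and where 4733 genes had an unadjusted p under 0.05. Among the 7, unadjusted p was under 0.05 for Retnlb (0.013) and Fcgbp (0.033), and DESeq2 called these 2 higher, beside 6.51% of all genes. Muc2 read 0.0702, 0.0793, 0.0622 and 18.8 RPKM in healthy and 20.2, 4.85, 1.82 and 8.54 RPKM in tumor stroma, so all tumor libraries exceeded 3 of the 4 healthy ones. Without healthy stromal replicate 4, the library with epithelial transcripts, 4 of 7 were called higher, beside 3.82% of 19800 genes: Muc2 (log2 change 7.34), Fcgbp (6.07), Retnlb (5.28) and Agr2 (4.83). The healthy libraries kept there held 2.49 to 3.48 RPKM of epithelial markers and the tumor libraries 32.9 to 302 RPKM. The part of epithelial RNA in these calls was not tested.

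Epithelial markers are given beside those values. Their sum was 302, 173, 59.3 and 32.9 RPKM in tumor stroma replicates 1 to 4, or 98.5%, 56.4%, 19.3% and 10.7% of the mean in sorted tumor epithelium. The 9 members other than Retnlb reached a median of 81.6%, 31.4%, 4.71% and 15.5% of their tumor epithelial means in the same libraries. Replicates 1 and 2 were highest in both measures, while replicate 4 had fewer epithelial markers than replicate 3 and more Muc2. None of the 12 epithelial markers was at 0 in all libraries of the group, and the part of epithelial cells in the stromal values was not tested further. Leaving out tumor stromal replicates 1 and 2 and healthy replicate 4 gave 4 higher calls, of 6 members tested, beside 5.25% of 20482 genes. The tumor libraries kept there held 59.3 and 32.9 RPKM of epithelial markers and the healthy ones 2.49 to 3.48 RPKM. With that imbalance the fit cannot tell stromal expression from epithelial RNA.

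Between tumor epithelium and tumor stroma, 0 of 10 members were called by edgeR, and so were 0% of 16985 genes in the higher direction, with 2507 genes at an unadjusted p under 0.05. Atoh1 was the only member at an unadjusted p under 0.05 (0.0498), with a log2 difference of 1.80 ± 0.80. Some of these libraries came from the same animals by their titles, which the fit did not use. Without tumor stromal replicates 1 and 2, 5 members were called higher in epithelium, where 6.62% of 19784 genes were, namely Clca1 (3.65), Fcgbp (3.44), Agr2 (3.33), Spink4 (3.15) and Muc2 (2.26). Those 2 libraries were left out for their high epithelial markers, so higher calls of epithelial genes follow in part from that choice.

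Whether the change from healthy colon to tumor differed between epithelial and stromal cells was tested directly as an interaction over 16 libraries. It was lower in epithelial cells for 4 of 10 members, against 7.25% of 20901 genes called lower. The 4 were Retnlb (−7.71 ± 1.42, adjusted p = 0.0020), Zg16 (−7.45 ± 1.45, adjusted p = 0.0029), Fcgbp (−6.41 ± 1.46, adjusted p = 0.0080) and Tff3 (−5.27 ± 1.24, adjusted p = 0.0096). Muc2 gave −5.98 ± 2.09 with an adjusted p of 0.067. Without healthy stromal replicate 4, 9 of 10 were called, all but Spdef, beside 7.38% of 21622 genes, and Muc2 gave −12.09. Clca1 and Atoh1 held 0 counts in every healthy stromal library kept there, so the size of their differences is not read. Atoh1 was also called without healthy epithelial replicate 4 or tumor stromal replicate 4, Spink4 without tumor epithelial or tumor stromal replicate 3, and Spdef without tumor stromal replicate 3. Healthy stroma held only 0 to 19 counts of Zg16 and 3 to 148 of Fcgbp per library. Epithelial markers in tumor stroma stood at 10.7% to 98.5% of the tumor epithelial mean. Retnlb was highest in tumor stromal replicate 3, beside 1590 RPKM of neutrophil markers. The part of epithelial cells and neutrophils in these differences was not tested.

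In blood leukocytes, 9 of the 10 genes were low and most were close to absent. Blood monocytes held the most Muc2, 378 counts in healthy and 426 in tumor-bearing mice, at most 0.472 RPKM in a library. Blood neutrophils of tumor-bearing mice held 38 counts of Agr2 over 4 libraries, 27 of Muc2, 12 of Fcgbp, 5 of Spink4 and 1 of Spdef, and 0 of Tff3, Clca1, Zg16 and Atoh1, a count of 0 that allows up to 3 counts. Tumor neutrophils held 20386 counts of Muc2 and 683 of Fcgbp. Of 4 members tested between tumor and blood neutrophils, Muc2 (log2 change 9.85 ± 1.67, adjusted p = 0.0029) and Fcgbp (5.70 ± 1.04, adjusted p = 0.0041) were called higher, where 11.9% of 13674 genes were. With 2 to 9 counts of Muc2 and 2 to 4 of Fcgbp per blood library, both passed the filter on low counts through the tumor libraries. A higher call was then the likely outcome, so nothing is read from the share of members called. Agr2 (3.73 ± 1.56, adjusted p = 0.13) was called by DESeq2, in a fit over all 40 libraries (adjusted p = 0.043) and without tumor neutrophil replicate 2. With tumor replicate 2 or 4 or any blood library left out, 3 members were called, Agr2 among them only without tumor replicate 2.

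Single tumor neutrophil libraries differed widely. Muc2 read 30.4, 18.4, 0.824 and 0.158 RPKM in replicates 1 to 4, against epithelial marker sums of 194, 43.6, 43.9 and 15.3 RPKM. Blood neutrophils of tumor-bearing mice had sums of 0.679 to 1.64 RPKM. In replicate 1 the members other than Retnlb reached a median of 68.2% of their tumor epithelial mean and the epithelial markers 63.2%. In replicate 2, Muc2 stood far above most other members: 7948 counts, or 75.7% of the tumor epithelial mean, beside 0 counts of Agr2, Tff3, Clca1, Zg16 and Atoh1, 54 of Fcgbp, 30 of Spink4 and 8 of Spdef, which was 26.8% of the tumor epithelial mean for Spdef. Epithelial markers stood at 14.2% of the tumor epithelial mean in that library, and their part in the Muc2 value was not tested.

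Monocytes showed a weaker form of this. Of 2 members tested between tumor and blood monocytes, Muc2 was called higher (3.68 ± 1.08, adjusted p = 0.0396), where 7.76% of 15280 genes were called higher, and Agr2 was not (2.72 ± 1.16, adjusted p = 0.14). Muc2 read 0.150, 8.67, 1.39 and 0.991 RPKM in tumor and 0.0461, 0.472, 0.289 and 0.173 RPKM in blood monocytes, so 3 of 4 tumor libraries lay above all blood libraries. The call was lost, with an adjusted p of up to 0.14, when tumor replicate 2 or 3 or any blood library was left out. Epithelial markers summed to 1.91 to 38.8 RPKM in tumor and 0.569 to 1.04 RPKM in blood monocytes, the highest in the tumor replicate 2 that was highest for Muc2.

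Retnlb was the exception among leukocytes. The study reported RELMβ, with MMP9, as a protein secreted differently when T cells were cultured with tumor neutrophils. Its transcript was followed here for that reason. The study measured protein of co-cultures that also held T cells, while the Retnlb values here are RNA of sorted cells. Blood neutrophils read 64.0, 58.4, 23.2 and 48.8 RPKM in healthy mice and 247, 216, 263 and 134 RPKM in tumor-bearing mice, with no overlap. The difference was called, with a log2 change of 2.21 ± 0.30, adjusted p = 0.0038, where 1.79% of 13360 genes were called higher, and it was called when any 1 library was left out but not in a fit over all 40 libraries (log2 change 2.20, adjusted p = 0.33). This comparison was added after the values were seen, and Retnlb was the only called gene of the 3 members tested there. Muc2, with 65 counts over the blood neutrophil libraries of healthy mice and 27 over those of tumor-bearing mice, had a log2 difference of −1.07 ± 0.50 that was not called (adjusted p = 0.25). Tumor neutrophils read 14.7, 60.1, 109 and 107 RPKM, all below the blood of tumor-bearing mice, with a log2 difference of −1.47 ± 0.57 that was not called (adjusted p = 0.10).

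In these cells Retnlb followed its paralog Retnlg, a gene of the same family that neutrophils express strongly. Retnlg averaged 463 ± 180 RPKM in blood neutrophils of healthy mice, 2059 ± 558 RPKM in those of tumor-bearing mice and 675 ± 445 RPKM in tumor neutrophils. Retnla, another gene of the family, averaged 128, 565 and 184 RPKM in the same groups. The log2 change of Retnla between the blood groups was 2.20 ± 0.33. Retnlb amounted to 10.1% to 10.9% of Retnlg in 11 of the 12 neutrophil libraries, and to 18.8% in tumor neutrophil replicate 1, which held the most epithelial markers. The log2 change of Retnlg between the blood groups was 2.22 ± 0.31, next to 2.21 ± 0.30 for Retnlb. In healthy epithelium the order was turned, with Retnlg at 9.40% to 15.1% of Retnlb, and in tumor epithelium at 10.9% to 18.7%. Retnlg was lower in tumor epithelium (−3.83 ± 0.53, adjusted p = 0.00057), next to −4.19 ± 0.65 for Retnlb. Whether the Retnlg counts in epithelium come from Retnlb reads was not tested, so this change is uncertain.

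**Figure D5:**
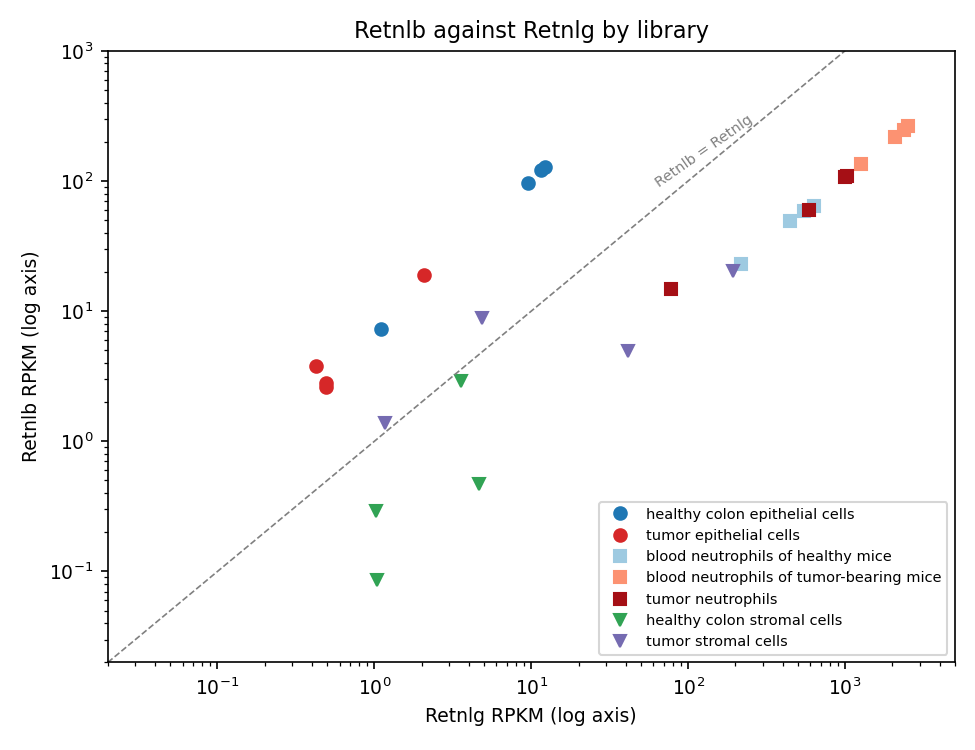
Retnlb against Retnlg RPKM (both log axes) in single libraries of epithelial cells (circles), neutrophils (squares) and stromal cells (triangles), with a dashed line of equality. Neutrophil libraries lie on a line about 10 times below equality (10.1% to 18.8%), epithelial libraries lie above equality, and stromal libraries spread on both sides of equality.

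The sequences show how alike the paralogs are. Their coding sequences (315 and 351 bases in GENCODE M21, GRCm38) matched at 81.3% of aligned bases, and no stretch of 50 bases was shared exactly, but 72 of 647 windows of 50 bases in Retnlb transcripts had a match in Retnlg with at most 5 mismatches, and the closest differed by 2. The 60 coding bases below have the fewest differences, 3, at coding bases 198 to 257 of Retnlb and 234 to 293 of Retnlg, and capitals mark the bases that differ.
Retnlb: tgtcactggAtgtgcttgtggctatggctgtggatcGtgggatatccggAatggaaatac
Retnlg: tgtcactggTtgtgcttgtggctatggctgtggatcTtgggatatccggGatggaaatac
Counted from 1 at the first coding base of Retnlb, the differences are A207T, G234T and A247G. Retnlb lies at chr16:48816856-48818892 on the plus strand. The sources used here do not give how reads that fit several places were counted, and whether Retnlb counts in neutrophils come from Retnlg reads was not tested, so the Retnlb levels of neutrophils are uncertain.

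Retnlb and Retnlg were also read in tumor stroma. Retnlb stood at 8.85, 1.37, 20.4 and 4.95 RPKM in replicates 1 to 4, and Retnlg read 4.83, 1.17, 193 and 41.5 RPKM, highest in the replicates 3 and 4 where neutrophil markers summed to 1590 and 545 RPKM. Retnlb was 10.5% of Retnlg in replicate 3, close to the share in neutrophils. Blood monocytes of healthy mice had Retnlb at 0.614, 7.35, 0.426 and 0.0942 RPKM, and replicate 2, the high library, also had the most Retnlg, 71.8 RPKM.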

How the data were processed

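The authors mapped single reads of amplified cDNA to mouse genome mm10, with Bowtie 2 named in the submitters' processing notes, and used HTSstation to obtain a count for each Ensembl gene. Counting of strand and of reads with several matches is not given in the sources used here. The deposited counts are estimated counts without normalization (99.6% of nonzero values not whole), and were rounded. The deposited RPKM values were used for levels per length.

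Members and lists were chosen with earlier results of these data known. Each comparison was fitted to its own groups of 4 libraries with edgeR 4.0.16 in R 4.3.3 (filterByExpr, TMM, robust quasi-likelihood test) and adjusted over all genes tested; the SE was derived from the F statistic. Other tools tried were DESeq2 1.42.0 and limma-voom (limma 3.58.1, the study's tool). Other settings were RLE scaling, library sizes from epithelial markers, leaving out mitochondrial genes, no filter or 10 counts in every library, a fit over all 40 libraries, a block for the replicate number, calls without a fold limit, limma on log2(RPKM + 1) or log2(RPKM + 0.1), and leaving out each library. The fits were tested on simulated counts. Named were all members, at most 4 called genes per list with the largest change and at least 1 RPKM in either group, and the 10 genes most like the members' mean. Intervals and floors cover counting error only. Where titles do not give separate animals, p-values measure the spread between samples. The result of the tuft cell marker list is not reported here.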

Additional observations from a re-analysis of the deposited data

Results flagged for a closer look

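In 42 group values of members with a library above 1 RPKM, 15 had 1 library far from the other 3. Chance flags about 1 in 20 groups of independent, normally spread values, which these are not, since the members share libraries and are skewed. Healthy stromal replicate 4 was the far library for Muc2 (18.8 RPKM), Tff3 (1.70), Clca1 (1.73), Agr2 (13.6), Spink4 (10.8) and Retnlb (2.90). Tumor neutrophil replicate 1 was far above its group for Agr2 (6.03 RPKM), Zg16 (1.58) and Spink4 (18.7). Tumor monocyte replicate 2 was far above for Muc2 (8.67 RPKM), Spink4 (9.38) and Retnlb (1.70). Tumor epithelial replicate 3 was far above for Spink4 (58.0 RPKM) and Retnlb (19.0), and replicate 2 of the blood monocytes of healthy mice for Retnlb (7.35). The first 3 of these libraries also held the most epithelial markers of their groups, 25.4, 194 and 38.8 RPKM, and the part of those cells in the values was not tested.

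The change from healthy colon to tumor differed between libraries sorted as epithelial and as stromal, by a test of the difference itself, for Retnlb (−7.71 on the log2 scale), Zg16 (−7.45), Fcgbp (−6.41) and Tff3 (−5.27). Zg16 was near the floor in healthy stroma (0 to 19 counts per library). The part of epithelial cells and neutrophils in the stromal values was not tested.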

How the results depend on the processing

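The 10 lower calls in tumor epithelium stayed at 7 to 10 under every alternative (7 of the 7 tested with 10 counts in every library), 10 with each library left out; lost were Spink4 with all 40 libraries, and Spink4 and Spdef on log2(RPKM + 1). Higher calls in tumor stroma (0) became 2 with DESeq2 and with all 40 libraries, 1 on log2(RPKM + 0.1) and 4 without the epithelial-rich stromal libraries, an alternative added after the data were seen, and ranged from 0 to 4 with 1 library left out. Higher calls in tumor neutrophils (2) became 1 with limma-voom and on log2(RPKM + 0.1), 0 on log2(RPKM + 1) and with 10 counts in every library, 7 with all 40 libraries, and 2 to 3 with 1 left out, and lower calls (0) became 1 on log2(RPKM + 0.1). The monocyte call (1) became 2 with DESeq2, 0 with limma-voom, no filter, all 40 libraries or either RPKM scale, and 0 to 1 with 1 left out. Healthy epithelium against stroma (10) gave 1 with 10 counts in every library, where 1 was tested, 9 with DESeq2, no filter (both without Clca1) and log2(RPKM + 1) (without Spdef), and 9 to 10 with 1 left out. Tumor epithelium against stroma (0) gave 5 without the epithelial-rich stromal libraries. The interaction (4) gave 9 with limma-voom, DESeq2, log2(RPKM + 0.1) and without the epithelial-rich libraries, 8 on log2(RPKM + 1), 0 with 10 counts in every library (1 tested), and 4 to 9 with 1 left out. Retnlb in blood neutrophils (1) gave 0 with all 40 libraries. Apart from fewer genes tested or fewer libraries, the cause was not tested.

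Directions turned for values that were not called. In stroma, Spdef was −0.11 with the replicate block, −0.010 on log2(RPKM + 1), −0.076 on log2(RPKM + 0.1), −0.013 without the epithelial-rich libraries and −0.49 to 0.66 with 1 library left out, below 0 without tumor replicate 1 or 4 or healthy replicate 2 or 4. Agr2 ranged from −0.44 (without tumor replicate 1) to 4.83 (without healthy replicate 4). In tumor epithelium against stroma, Spink4 ranged from −0.21 (without tumor epithelial replicate 3) to 2.12 and Retnlb from −1.34 to 0.32 (without tumor stromal replicate 3) with 1 library left out. By the titles, the replicate numbers matched shared animals for some libraries and not for others, so the replicate block paired animals only in part. Same-numbered libraries correlated at −0.26 to 0.28, above 0.1 in 9 of 52 pairs, and 21 of 104 matched best with their own number. Such correlations cannot show whether animals were shared. With that replicate block the counts were 10, 0, 2, 1, 10, 0, 4 and 1, the values without it. Depth limits Zg16, Spdef and Atoh1 in tumor epithelium and most members in blood.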
